A study of Mus musculus with 9 samples.

Results

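Removal of leukaemia inhibitory factor (LIF) was examined in the RF8 line of mouse embryonic stem (ES) cells, in the cells that carry wild-type Nanog (WT), by setting the 1 library grown without LIF against the 1 library grown with it. These are 2 of the 9 libraries of the series, which cover 3 transfectants in 3 cultures with 1 library for each combination. The culture with LIF was the routine one and held 1000 units of LIF per ml with serum and puromycin, and the culture without LIF differed by the absence of the cytokine as far as the labels say. The other transfectants are cells carrying EGFP, a fluorescent protein that serves as the control, and cells carrying Nanog with the L122A change in its homeodomain, the part of the protein that binds DNA. Their libraries with and without LIF are given side by side below, and the 3 libraries grown with 5 µM retinoic acid are used for the level of Nanog alone. Each transfectant appears under 1 name, with no separate clones, cultures or time in culture given in the labels, and the promoter of the construct is not given in the sources used here. Libraries are called by their labels throughout.

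LIF is a cytokine of the interleukin-6 family that binds the receptor chains LIFR and gp130 (gene Il6st). The bound receptor activates Janus kinases, which phosphorylate the transcription factor STAT3, and STAT3 then switches on Klf4, Tfcp2l1 and Socs3, the last of which encodes a feedback inhibitor of the same receptor. In mouse ES cells this pathway maintains naive pluripotency, the state of the preimplantation epiblast, and cells that leave it pass through a formative state marked by Otx2, Fgf5 and the de novo DNA methyltransferases before they take up a lineage. Nanog is a homeodomain factor of the naive network that can sustain self-renewal without LIF when it is overexpressed.

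Every level below is in CPM, the read count relative to the library total scaled by trimmed-mean factors, and every fold is the ratio of the WT library without LIF to the WT library with LIF, turned over where it is lower. The interval after a fold is its exact 95% Poisson interval and covers the error of counting alone. A gene is counted as higher or lower once the ratio reaches 2-fold, provided that 1 of its levels is 5 CPM or above, and log2 ratios carry a prior count of 2. A gene under 5 CPM with LIF can enter only by being higher without it, as 594 of the 10037 genes did, so a count of higher genes is partly set by this minimum. Among the 9443 genes at 5 CPM with LIF, 278 were higher (2.94%) and 461 lower (4.88%). With 1 library on each side no spread between cultures could be estimated, so no test was run and a fold describes these 2 libraries. In bulk RNA, fewer cells of a type and less RNA per cell cannot be told apart.

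Total gene counts were 24778937 in the library with LIF and 26076780 in the library without, within the range of the 9 libraries (24166395 to 28714988). Ribosomal RNA made up 11.1% and 9.47% of the counts, and mitochondrial genes 12.5% and 9.58%, so both shares were lower without LIF. The ES cell label was checked against 8 markers, Pou5f1, Sox2, Sall4, Lin28a, Epcam, Cdh1, Zfp42 and Esrrb, and all of them were above 5 CPM in both libraries. The levels of markers of other cells were also summed. The 16 fibroblast and feeder markers summed to 66.1 CPM with LIF and 107 CPM without, with Col6a1, Lum and S100a4 at 0 in both libraries and Fn1, which is the largest part of both sums, at 44.8 and 74.3 CPM. The 10 blood and endothelium markers summed to 53 and 50.9 CPM, with Ptprc and Hbb-bh1 at 0. The 14 trophectoderm markers summed to 42.8 and 58.9 CPM. The 21 endoderm markers had larger sums, 452 CPM with LIF and 337 CPM without, with Sparc at 283 and 134 CPM. The part that these shares and markers have in the results below was not tested.

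Nanog itself was at 222 CPM with LIF and 168 CPM without, a level 1.32-fold lower (1.27 to 1.38). It was also lower without LIF in EGFP cells, where it went from 384 to 290 CPM, and in L122A cells, where it went from 239 to 130 CPM. In both cultures the library labelled WT therefore held less Nanog RNA than the library labelled EGFP. With retinoic acid Nanog was lowest in EGFP cells, at 0.871 CPM, against 195 CPM in WT and 258 CPM in L122A cells. The counts of this gene (mm9 chromosome 6, 122657507 to 122664651, plus strand) do not separate the transfected from the endogenous transcript.

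The culture labels were set against a list of LIF and STAT3 targets. The list was chosen with earlier results of these data known, so it is no independent check of the labels. The promoters of the listed targets that were lower and hold a STAT element are shown first. Of the 7 LIF and STAT3 targets that were at least 2-fold lower, Socs3 and Icam1 contain the STAT element TTCNNNGAA in the 300 bases around the start site (250 before, 50 after). The sequences are from RefSeq on GRCm38.p6, read 5′ to 3′ along the gene, with the element in capitals. Socs3 lies at chr11:117969317-117969616 on the minus strand and Icam1, a cell adhesion molecule, at chr9:21015690-21015989 on the plus strand.
Socs3: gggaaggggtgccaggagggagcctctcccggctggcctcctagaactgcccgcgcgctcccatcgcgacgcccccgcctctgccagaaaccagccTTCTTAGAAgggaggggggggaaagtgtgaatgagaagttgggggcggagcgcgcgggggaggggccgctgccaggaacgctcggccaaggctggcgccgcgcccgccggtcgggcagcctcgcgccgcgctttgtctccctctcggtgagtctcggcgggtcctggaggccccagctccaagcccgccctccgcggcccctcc
Icam1: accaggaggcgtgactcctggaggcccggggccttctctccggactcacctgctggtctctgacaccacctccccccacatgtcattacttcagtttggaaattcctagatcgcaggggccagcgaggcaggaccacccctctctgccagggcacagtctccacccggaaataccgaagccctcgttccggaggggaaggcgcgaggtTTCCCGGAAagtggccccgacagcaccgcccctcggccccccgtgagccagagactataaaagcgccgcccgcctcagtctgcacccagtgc
The element is its own reverse complement and was searched with any 3 bases in the middle. It was present in 8.30% of all 32851 promoters of this table. Counted by gene with any promoter, it was found for 7.97% of genes at 5 CPM (617 of 7737), 10.7% of those lower without LIF (36 of 335) and 7.53% of those higher (33 of 438). A match describes the letters in this window and is no measure of binding.

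Targets of LIF and STAT3 were lower after withdrawal. Of the 20 targets listed, 13 reached 5 CPM, 7 of these were at least 2-fold lower and 1 was higher, with a median log2 ratio of -1.86. All 13 were at 5 CPM with LIF, and the median over all 20 was -0.57. Among all 10037 genes at 5 CPM the corresponding shares were 4.59% lower and 5.66% higher (461 and 568 genes, 10.3% together), and the median log2 ratio was -0.03.
Socs3 had 399 counts with LIF and 16 without, or 19.6 and 0.653 CPM, which is 30.1-fold lower (18.3 to 53.1). Its gene lies on mm9 chromosome 11 at 117827393 to 117831361 on the minus strand. Bcl3, a coactivator of NF-kappaB proteins, went from 13.8 to 1.06 CPM and was 13-fold lower (8.68 to 20.2). Both genes were thus near or below 1 CPM without LIF.
Klf4, the Krüppel-like factor that relays STAT3 to the naive network, was at 87.2 CPM with LIF and 7.75 CPM without, 11.2-fold lower (9.68 to 13.1). Tfcp2l1, the STAT3 target that maintains naive identity, was at 32.6 and 5.96 CPM, 5.47-fold lower (4.56 to 6.59). Gbx2, a homeobox factor, was at 24.4 and 5.06 CPM, and Icam1 at 24.5 and 5.63 CPM, lower by 4.81-fold and 4.34-fold. Stat3 itself was 3.66-fold lower (3.17 to 4.24), at 37.9 and 10.4 CPM.
The remaining targets at 5 CPM were not 2-fold lower. Pim3 (1.83-fold), Klf5 (1.63-fold) and Spry4 (1.35-fold) were lower by less than 2-fold, Myc and Pim1 differed by 1.15-fold and 1.22-fold in the other direction, and Ocln, a tight junction protein, was 2.44-fold higher. The 7 targets Junb, Sbno2, Cebpd, Fos, Ier3, Osmr and Cebpb stayed below 5 CPM in both libraries.

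In the pathway that carries the signal, the receptor chain Lifr and Stat3 were lower with Socs3. Of 23 receptor and JAK-STAT genes, 16 reached 5 CPM, and 3 were at least 2-fold lower and none higher (background 4.59% and 5.66%), with a median log2 ratio of 0.15. The 3 were Socs3, Stat3 and Lifr, the LIF-specific receptor chain, which was at 35.6 CPM with LIF and 13.7 CPM without (2.59-fold lower, 2.27 to 2.95). The shared chain Il6st was at 48.9 and 44.6 CPM, a difference of 1.10-fold that changed sign when libraries were scaled by total counts.
The kinases were at 26.1 and 32.9 CPM (Jak1), 4.87 and 6.0 CPM (Jak2) and 5.90 and 6.73 CPM (Tyk2), all within 1.26-fold. The adaptors and phosphatase of the branch to RAS and ERK, Grb2, Gab1, Shc1, Sos1 and Ptpn11, lay between 1.06-fold lower and 1.53-fold higher. Pias1 (1.82-fold higher), Socs2 (1.37-fold higher) and Pias3 (1.29-fold lower) were inside 2-fold as well. Il6ra, Cish, Stat5a, Stat5b, Lif, Socs1 and Osmr were below 5 CPM.

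**Figure D1:**
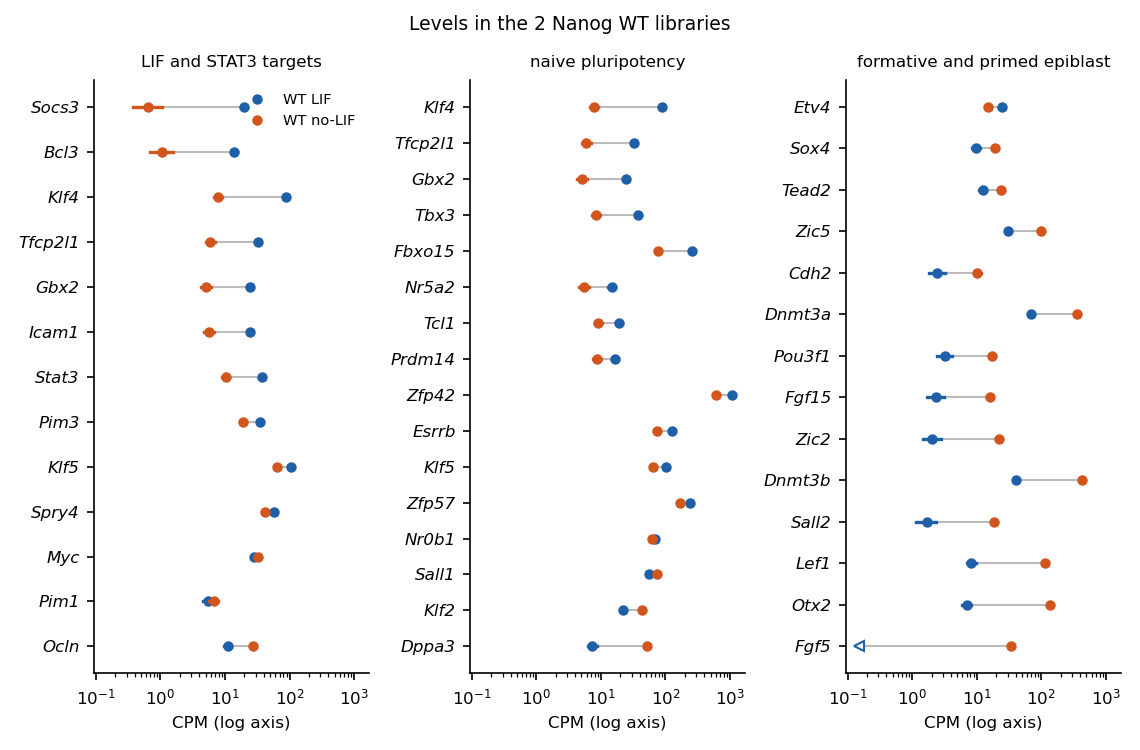
Levels of the members at 5 CPM or more of 3 gene lists in the WT library with LIF (blue) and without LIF (orange), in CPM on a log axis. Points are single libraries, thick lines are 95% Poisson intervals of each level, and the open triangle marks a count of 0 drawn at the value of 3 counts. Socs3 lies at 19.6 and 0.653 CPM, and Otx2 at 7.04 and 139 CPM.

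The naive factors differed among themselves. All 16 naive factors on the list reached 5 CPM, and 7 were at least 2-fold lower, 1 was higher and 8 lay between, with a median log2 ratio of -0.88. Besides Klf4, Tfcp2l1 and Gbx2, the lower members were Tbx3, a T-box factor of the network (37.5 to 8.44 CPM, 4.45-fold), Fbxo15, an F-box protein used as an ES cell marker (261 to 77.6 CPM, 3.36-fold), the nuclear receptor Nr5a2 (14.7 to 5.55 CPM, 2.65-fold) and Tcl1, a cofactor of AKT (19.3 to 9.18 CPM, 2.11-fold). Thus 3 of the 7 are counted among the STAT3 targets too.
Another 6 members were lower by less than 2-fold. Esrrb, an orphan nuclear receptor of the naive network, was at 126 and 75 CPM, 1.68-fold lower (1.59 to 1.79). Zfp42, which encodes the marker Rex1, was at 1074 and 599 CPM, 1.79-fold lower (1.75 to 1.83). Prdm14, a repressor of FGF signalling and DNA methylation, was 1.90-fold lower, Klf5 1.63-fold and Zfp57 1.42-fold, and Nr0b1 (68.5 and 62.6 CPM) differed by 1.09-fold, with a sign that turned under total-count scaling.
Sall1, Klf2 and Dppa3 went the other way. Klf2, a Krüppel-like factor that acts beside Klf4, was at 21.8 CPM with LIF and 43.2 CPM without, 1.98-fold higher (1.77 to 2.22), and Sall1 was 1.35-fold higher. Dppa3, which encodes Stella, a maternal factor that protects DNA methylation at imprinted loci, was at 7.38 and 52.7 CPM, 7.15-fold higher (6.03 to 8.52). It was the only naive gene past 2-fold upward, and Klf2 joined it under scalings by total counts, with FPKM and after correction for length.

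Of the 18 general pluripotency genes, all reached 5 CPM, 2 were at least 2-fold higher and none was lower, beside 10.3% of all genes past 2-fold in either direction, with a median log2 ratio of 0.10. Pou5f1, which encodes the core factor Oct4, was at 444 CPM with LIF and 237 CPM without, 1.87-fold lower (1.81 to 1.94), while its partner Sox2 was at 58.6 and 74.0 CPM, 1.26-fold higher (1.17 to 1.36). The 2 members past the 2-fold line were Lin28a, an inhibitor of let-7 maturation (26.9 to 55.3 CPM, 2.06-fold), and Epcam, an epithelial adhesion molecule (119 to 246 CPM, 2.06-fold), and both intervals (1.86 to 2.28 and 1.97 to 2.16) reach below 2.
Gdf3 (1.65-fold), Tdgf1 (1.37-fold), Dppa5a (1.22-fold), Dppa2 (1.14-fold) and Dppa4 (1.07-fold) were lower by small amounts, and for Dppa2 and Dppa4 the sign changed under total-count scaling. Foxd3 (1.61-fold), Sall4 (1.42-fold), Utf1 (1.25-fold), L1td1 (1.23-fold), Rif1 (1.19-fold) and Trim28 (1.09-fold) were higher, and Zfp296 was at 8.71 and 8.65 CPM.

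Many genes of the formative and primed epiblast were higher. Of 18 listed, 14 reached 5 CPM, 11 of these were at least 2-fold higher and none was lower by that much, with a median log2 ratio of 2.59, both as fitted and with Fgf5 set at its lower bound. Of the 14, 6 were under 5 CPM with LIF (Cdh2, Fgf15, Fgf5, Pou3f1, Sall2 and Zic2) and so could enter only by being higher. Of the 8 at 5 CPM with LIF, 5 were higher and none lower, beside 2.94% of all genes selected in that way. Over all 18 genes with no minimum, the median log2 ratio was 2.41 and the summed level of the list went from 214 to 1322 CPM.
Fgf5, the ligand that marks the postimplantation epiblast, had 0 counts with LIF and 825 counts without, which is 33.7 CPM and at least 228-fold higher when the 0 is read as 3 counts in that library. The lower limit of the exact 95% Poisson interval of this ratio was 185. The gene lies on mm9 chromosome 5 at 98683203 to 98706049 on the plus strand. Otx2, the homeobox factor that drives entry into the formative state (mm9 chromosome 14, 49277354 to 49287319, minus strand), was at 7.04 and 139 CPM, 19.7-fold higher (16.7 to 23.5). Lef1, a transcriptional partner of beta-catenin, was at 8.27 and 116 CPM, 14.0-fold higher (12.0 to 16.5). These 3 genes were at or below 8.27 CPM with LIF and between 33.7 and 139 CPM without it.
The de novo DNA methyltransferases were already present with LIF. Dnmt3b was at 41.0 and 426 CPM, 10.4-fold higher (9.68 to 11.2), and Dnmt3a at 68.3 and 361 CPM, 5.29-fold higher (5.00 to 5.60). Dnmt1, the maintenance enzyme gene, named here after its values were seen, was at 53.1 and 76.7 CPM, 1.44-fold higher.
Other zinc finger and homeodomain factors of the list were higher as well. Sall2 was at 1.67 and 18.5 CPM (11-fold), Zic2 at 2.07 and 22.1 CPM (10.7-fold), Pou3f1, which encodes Oct6, at 3.20 and 17.5 CPM (5.49-fold), and Zic5 at 30.3 and 99.8 CPM (3.29-fold). Fgf15, an epiblast ligand, was at 2.31 and 16.1 CPM (6.97-fold), and Cdh2, N-cadherin, at 2.46 and 10.3 CPM (4.18-fold). Sox4 and Tead2 were each 1.93-fold higher, Etv4, an ETS factor that responds to FGF, was 1.65-fold lower, and Nkx1-2, Sox3, Wnt8a and Car14 were below 5 CPM.

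**Figure D2:**
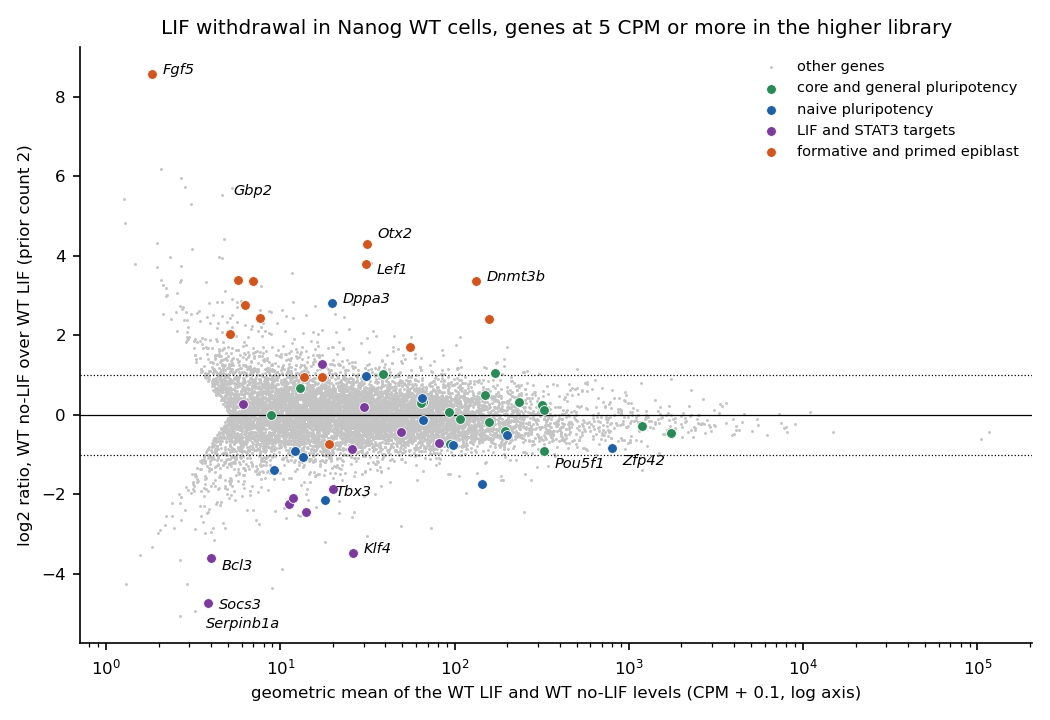
Log2 ratio of WT without LIF over WT with LIF against the geometric mean level, for the 10037 genes at 5 CPM or more in the higher library. Grey points are single genes, coloured points are members of 4 lists (a gene in several lists takes the colour drawn last), and dotted lines mark 2-fold. The formative genes Fgf5, Otx2, Lef1 and Dnmt3b stand at log2 ratios from 3.37 to 8.56, and Socs3, Bcl3 and Klf4 from -4.73 to -3.48.

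Across the genome, 111 genes were at least 4-fold higher and 78 at least 4-fold lower, and 17 and 6 were past 16-fold. All 1029 genes past 2-fold had an interval that excludes 1, and for 328 of those higher and 251 of those lower it lay wholly past 2-fold. The called share fell with abundance, from 20.4% of the 1796 genes between 5 and 10 CPM to 0.694% of the 144 genes at 1000 CPM or more. The balance of the calls rests on scaling. Higher genes were 55.2% of the calls with trimmed-mean factors, 77.7% with total counts (878 higher, 252 lower), 69.0% with totals that leave out ribosomal RNA and mitochondrial genes, and 69.8% with the deposited FPKM values. The median log2 ratio of all genes was 0.17 under total counts, so folds near 1 depend on this choice.

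The 10 genes with the largest ratio upward were Fgf5, 2610528J11Rik, Gbp1, Vrtn, Enpp2, Gbp2, Ndnf, Irgm1, Cxcl12 and Rab25. Enpp2, the enzyme autotaxin that makes lysophosphatidic acid, was at 0.640 and 37.7 CPM, 59.0-fold higher (34.3 to 111). Vrtn, which encodes vertnin, a gene linked to vertebral number, was at 0.295 and 20.1 CPM, 68.1-fold higher (31.1 to 187). Rab25, an epithelial small GTPase, was at 0.935 and 21.9 CPM, 23.4-fold higher (14.8 to 39.2). These genes were below 1 CPM with LIF, so their folds rest on few counts in that library.
For 2610528J11Rik (3 and 415 counts), Ndnf (2 and 194 counts) and the chemokine gene Cxcl12 (3 and 162 counts) the ratios were 115 (39.0 to 558), 80.4 (22 to 669) and 44.8 (15.1 to 219).
The 10 largest ratios downward belonged to Gm11496, Serpinb1a, Socs3, Gjb5, Gna14, Msln, Inhbb, Mob3c, Bcl3 and Slc52a3. Serpinb1a, an inhibitor of neutrophil serine proteases, was at 17.7 and 0.490 CPM, 36.1-fold lower (20.4 to 70.5). Gjb5, a gap junction connexin, was at 40.1 and 1.88 CPM, 21.4-fold lower (15.9 to 29.4), and Inhbb, the inhibin beta B subunit of activins, at 38.9 and 2.57 CPM, 15.1-fold lower (11.7 to 19.9). Gna14, a G protein alpha subunit, went from 12.5 to 0.571 CPM (22-fold), Gm11496 from 15.2 to 0.367 CPM (41.3-fold), and the riboflavin transporter gene Slc52a3 from 5.12 to 0.367 CPM (13.9-fold). The kinase cofactor gene Mob3c was 14.1-fold lower, and Msln, the surface protein mesothelin, was 26.8-fold lower from 5.46 CPM.

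Other signalling lists held genes past 2-fold upward alone, to be read beside the 5.66% of all genes that were higher. For Nodal, 14 of 17 genes reached 5 CPM, 3 of them only through the library without LIF, and 3 were higher (5 under total counts), with a median log2 ratio of -0.06 that turned positive under total-count scaling. Among them were Lefty1, a secreted Nodal antagonist (28.5 to 111 CPM, 3.89-fold, 3.56 to 4.26) and Smad3, a signal transducer (2.12 to 6.32 CPM, 2.99-fold). In the FGF and ERK list 16 of 20 reached 5 CPM and 4 were higher, namely Fgf5, Fgf15, the receptor Fgfr2 (1.82 to 7.02 CPM, 3.85-fold) and Spry1, a feedback inhibitor (3.59 to 10.1 CPM, 2.81-fold), with a median of 0.36. All 4 were under 5 CPM with LIF.
Of 19 Wnt genes, 7 reached 5 CPM and 3 were higher. These were the nuclear partners of beta-catenin, Lef1, Tcf7 (35.9 to 97.2 CPM, 2.71-fold) and Tcf7l1 (8.76 to 21.1 CPM, 2.40-fold), and the list median was 0.90. Of 19 BMP genes, 9 reached 5 CPM and 1 was higher (3 under total counts), Id2, an inhibitor of basic helix-loop-helix factors (11.1 to 25.9 CPM, 2.34-fold), with a median of 0.14. With the reported scaling, no member of these 4 lists was 2-fold lower.

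Lineage lists differed in how many of their members reached 5 CPM. Their counts stand beside 5.66% of all genes higher and 4.59% lower. Dab2 (endoderm), Krt8 (trophectoderm), Prdm1 (germ cell), and Tagln and Thy1 (fibroblast) were under 5 CPM with LIF. They could enter only by being higher. None of the 16 primitive streak and mesoderm genes reached 5 CPM (the highest was 4.48 CPM), and their sum was 12.3 CPM with LIF and 14.2 CPM without. Of 21 endoderm genes 7 reached 5 CPM, with Foxa2 and Ttr at 0 in both libraries, and 2 were lower. They were Lama1, a laminin chain (12.2 to 1.31 CPM, 9.31-fold), and Sparc, a matrix glycoprotein (283 to 134 CPM, 2.10-fold). The endoderm median of 0.11 changed sign after correction for gene length.
Of 15 neural genes 4 reached 5 CPM, with Sox1 and Neurog2 at 0, and the adhesion molecule Ncam1 was lower (14.6 to 2.69 CPM, 5.41-fold), with a median of -0.73. Of 14 trophectoderm genes 4 reached 5 CPM. The transcription factors Tead4 (5.41 to 1.22 CPM, 4.42-fold) and Tfap2c (11.9 to 5.59 CPM, 2.12-fold) were lower and the keratin gene Krt18 was higher (8.07 to 33.1 CPM, 4.11-fold), with a median of -0.40. Retinoic acid response genes gave 2 of 15 at 5 CPM, none past 2-fold, with a median of -0.11 that changed sign with scaling, and Crabp1, a retinoid carrier, was 1.5-fold lower.
In the cleavage-stage list 2 of 8 measured genes reached 5 CPM (median -1.61), and Zscan4c, a gene of the 2-cell-like state, went from 9.0 to 1.31 CPM (6.90-fold lower), although reads of the near-identical Zscan4 copies may be split between them. Of 14 germ cell genes 11 reached 5 CPM (median 0.01). Prdm1, which encodes Blimp1 (1.38 to 5.59 CPM, 4.06-fold), and the piRNA factor gene Tdrd12 (50.2 to 108 CPM, 2.14-fold) were higher, and Rhox6, of a family of close copies, was lower (12.7 to 5.22 CPM, 2.44-fold). Among fibroblast markers 3 of 16 reached 5 CPM (median 0.73) and Tagln, an actin-binding protein, was higher (4.92 to 10.7 CPM, 2.18-fold). The 1 fibroblast marker at 5 CPM with LIF was not past 2-fold, and the median over all 16 was 0.46. Of the blood and endothelium markers 2 of 10 reached 5 CPM and none passed 2-fold, with a median of -0.15 that changed sign under total counts and Cd34 at 21.2 and 16.8 CPM.

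In the list of epithelial and mesenchymal transition, epithelial genes were higher and mesenchymal genes went both ways. Of 16 genes 11 reached 5 CPM, 8 were at least 2-fold higher and 2 lower, with a median log2 ratio of 1.28. Among all genes 5.66% were higher and 4.59% lower. Of the 11, Cdh2 was under 5 CPM with LIF and could enter only by being higher. Of the 10 at 5 CPM with LIF, 7 were higher and 2 lower, beside 2.94% and 4.88% of all genes selected in that way. Esrp1, an epithelial splicing factor, was at 9.64 and 67.5 CPM, 7.0-fold higher (6.03 to 8.16), the claudin gene Cldn6 at 11.6 and 51.8 CPM (4.48-fold), and the epithelial transcription factor gene Grhl2 at 7.38 and 31.5 CPM (4.26-fold). Cdh1, the epithelial cadherin, was at 169 and 357 CPM, 2.11-fold higher (2.03 to 2.20).
Zeb1, a repressor of epithelial genes, was at 9.15 and 1.88 CPM, 4.88-fold lower (3.51 to 6.89), and Vim, the intermediate filament vimentin, at 76.3 and 23.5 CPM, 3.25-fold lower (2.95 to 3.58). Cdh2 and Fn1, which are mesenchymal members, were higher, at 4.18-fold and 1.66-fold. The list holds genes of opposite roles, so its median describes no single direction of a transition.

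Interferon and antigen presentation genes included some of the largest ratios. Of 16 genes 9 reached 5 CPM, 2 of them (Gbp2 and Psmb8) only through the library without LIF, and 4 were higher, with a median log2 ratio of 0.89. Among all genes 5.66% were higher. Of the 7 members at 5 CPM with LIF, 2 were higher and none lower, beside 2.94% higher among all genes selected in that way. Gbp2, an interferon-induced guanylate-binding protein, was at 0.590 and 31.2 CPM, 52.9-fold higher (30.1 to 103), and the closely similar Gbp1 at 0.246 and 20.8 CPM, 84.7-fold higher (36.1 to 262), with reads that may be split between the copies. Irgm1, an immunity-related GTPase, was at 0.394 and 19.1 CPM, 48.4-fold higher (24.4 to 113). Psmb8, an immunoproteasome subunit, was at 0.640 and 13 CPM (20.3-fold, 11.7 to 38.6), and the transcription factor Irf1 at 8.41 and 49.2 CPM (5.84-fold, 4.97 to 6.90).
The class I heavy chain H2-K1, which also has close copies, was at 30.7 and 79.0 CPM, 2.57-fold higher. Irf7, Ifit3, Tap1, Cxcl10, Isg15, Gbp3 and Ifit1 stayed below 5 CPM. At a minimum of 1 CPM, 8 members of the list were higher in place of 4, with Isg15 at 0.0492 and 1.59 CPM, Ifit1 at 0 and 2.57 CPM, Gbp3 at 0.0984 and 3.06 CPM, and Cxcl10 at 0.590 and 1.88 CPM.

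Metabolic and housekeeping lists moved by small amounts in common. Of 23 glycolysis and hypoxia genes 21 reached 5 CPM, 18 had a log2 ratio above 0 and 2 were past 2-fold, with a median of 0.57 and a sum of 8466 CPM with LIF and 12495 CPM without. Members past 2-fold were 7 with total counts, 5 with totals that leave out ribosomal RNA and mitochondrial genes, and 6 with FPKM. With the reported scaling the 2 were the phosphofructokinase genes Pfkl (26.4 to 83.1 CPM, 3.15-fold) and Pfkm (7.87 to 16.4 CPM, 2.08-fold). Nuclear-coded genes of the respiratory chain and ATP synthase, a set chosen after the values were seen, had a median of -0.60, with 3 of 78 above 0, and 4 lower and none higher at 2-fold. In that set the median was 0.07 in EGFP and 0.12 in L122A cells. Mitochondrial ribosomal proteins (78 genes, median -0.46) and proteasome subunits (39 genes, median -0.37), chosen in the same way, were also below 0, and cytosolic ribosomal proteins (76 genes) had a median of -0.19 that changed sign under total-count scaling.
The median feature length was 1142.5 bases in the respiratory chain set and 1282.5 bases in the cytosolic ribosomal protein set, and the ratio varied with gene length over all genes. In the shortest of 10 length bins the median log2 ratio was -0.35, with 14 genes higher and 100 lower, and in the longest it was 0.25, with 93 higher and 21 lower. The medians of the shortest and longest bins were 0.13 and -0.15 in EGFP cells, and 0.23 and 0.06 in L122A cells, which had values down to -0.03 between them. After subtraction of the trend with length the respiratory chain median was -0.35, the cytosolic ribosomal protein median -0.02 and the glycolysis median 0.61. What gives rise to the length trend was not tested.

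**Figure D3:**
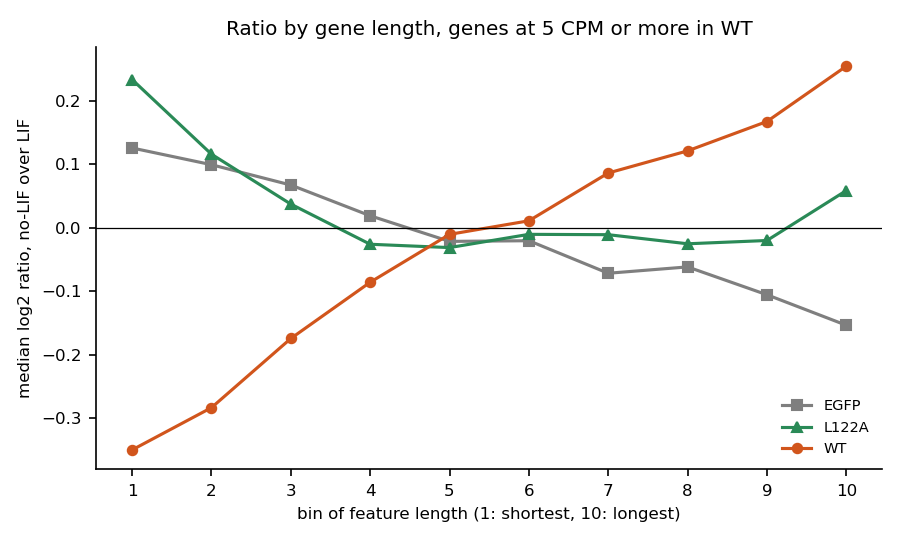
Median log2 ratio of culture without LIF over culture with LIF by bin of feature length (10 bins of like size), for the genes at 5 CPM or more in WT, in each transfectant (1 library on each side). The WT line runs from -0.35 in the shortest to 0.25 in the longest bin, and the EGFP line runs the opposite way from 0.13 to -0.15.

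The remaining lists are to be read beside the 5.66% of all genes that were higher and the 4.59% that were lower. H19 (imprinted), Slc40a1 (iron) and Jun (immediate early) were under 5 CPM with LIF and so could enter only by being higher. Of 10 DNA methylation genes 9 reached 5 CPM and the 2 higher ones were Dnmt3a and Dnmt3b (median 0.36). Of 15 imprinted genes 12 reached 5 CPM and 4 were higher (median 0.75), namely the spliceosomal gene Snrpn (119 to 313 CPM, 2.64-fold), Grb10, an adaptor that restrains insulin signalling (66.5 to 172 CPM, 2.59-fold), Peg3 (20.2 to 48.3 CPM, 2.39-fold) and Mest (61.5 to 138 CPM, 2.24-fold). Of 13 iron genes 10 reached 5 CPM (median 0.22), and the iron exporter gene Slc40a1 was higher (0.738 to 8.24 CPM, 11.2-fold, 6.61 to 20.3). None of the 9 iron genes at 5 CPM with LIF was higher, beside 2.94% of all genes selected in that way.
Of 20 cell cycle genes 17 reached 5 CPM and 1 was lower, cyclin D3 (Ccnd3, 47.3 to 22.6 CPM, 2.10-fold). Of 16 p53 targets 14 reached 5 CPM and 1 was lower, Perp, a membrane protein of desmosomes and apoptosis (154 to 54.8 CPM, 2.81-fold). The medians of these lists, -0.17 and -0.15, changed sign under total-count scaling. Of 12 immediate early and stress genes 8 reached 5 CPM (median -0.30), and Jun (2.56 to 5.59 CPM, 2.18-fold) and Dusp1, a phosphatase of MAP kinases (16 to 35 CPM, 2.19-fold), were higher.

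**Figure D4:**
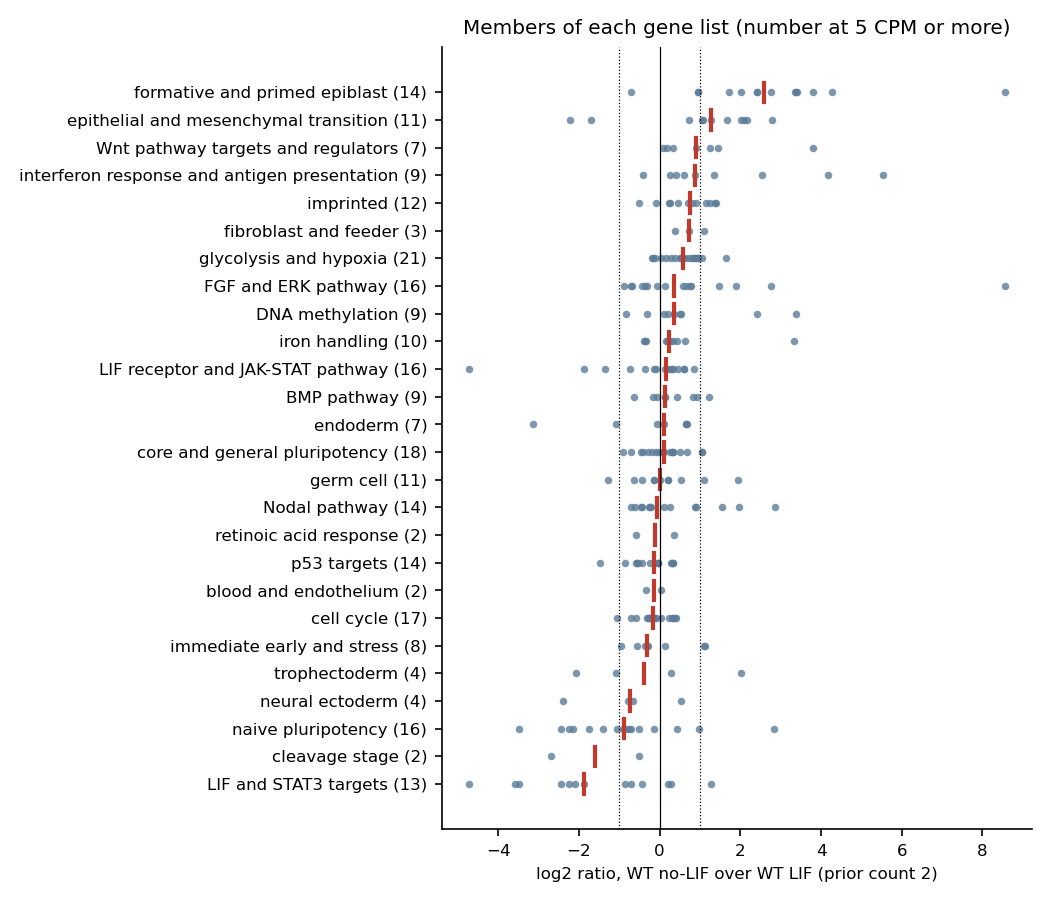
Log2 ratio of WT without LIF over WT with LIF for the members at 5 CPM or more of the gene lists with such members. Points are genes, red bars are list medians, dotted lines mark 2-fold and the number of genes stands in parentheses. Formative genes have a median of 2.59, and LIF and STAT3 targets one of -1.86.

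The same withdrawal in the other transfectants shares no library with the WT comparison, and differences between transfectants were not tested. In EGFP cells 756 of 10064 genes were higher (7.51%) and 642 lower (6.38%), 13.9% in all. In L122A cells 291 of 9913 were higher (2.94%) and 313 lower (3.16%), 6.09% in all. Of the 568 genes higher in WT, 152 were higher in EGFP (26.8% of the WT genes and 20.1% of the EGFP genes) and 93 in L122A (16.4% and 32.0%). Of the 461 lower in WT, 129 were lower in EGFP (28.0% and 20.1%) and 116 in L122A (25.2% and 37.1%). In all 3 transfectants 32 genes were higher and 58 lower (5.63% and 12.6% of the WT genes). Another 355 higher (62.5%) and 274 lower genes (59.4%) were counted in that direction in WT and in neither other transfectant. These include genes under 5 CPM in the others, which were not counted there whatever their ratio. An example is 2610528J11Rik, which was 2.26-fold higher in EGFP and 6.73-fold higher in L122A cells. Of all 10037 genes at 5 CPM in WT, 9474 reached 5 CPM in EGFP cells, with 471 higher and 593 lower. In L122A cells 9571 of them did, with 254 higher and 240 lower. Most genes at 5 CPM in WT were thus also counted in neither other transfectant.
The LIF targets Socs3, Bcl3, Klf4 and Stat3 were lower in all 3 transfectants. The log2 ratios of Socs3 were -4.73 in WT, -2.12 in EGFP and -6.41 in L122A cells, those of Bcl3 -3.59, -2.99 and -3.60, those of Klf4 -3.48, -4.00 and -2.66, and those of Stat3 -1.86, -1.38 and -1.87. Naive factors were separated more widely. In EGFP cells 15 of 16 naive genes were at least 2-fold lower, with a median of -3.39, against 7 of 16 in WT and 5 of 16 in L122A cells (median -0.54).
Esrrb went from 115 to 3.47 CPM in EGFP cells, 33.0-fold lower (26.8 to 41.1), from 126 to 75 CPM in WT and from 187 to 114 CPM in L122A cells. Zfp42 went from 620 to 59.2 CPM in EGFP cells and from 897 to 1119 CPM in L122A cells, where it was 1.25-fold higher. Nr0b1, Prdm14 and Klf2 had log2 ratios of -4.20, -4.93 and -3.39 in EGFP cells, against -0.13, -0.92 and 0.98 in WT and 0.94, -0.88 and 0.05 in L122A cells. Among general pluripotency genes 9 of 18 were lower in EGFP cells (median -0.97) and none in L122A cells (median -0.15), and Sox2 had a log2 ratio of -2.11 in EGFP cells.
Over all 18 formative genes, with no minimum level, the median log2 ratio was 2.41 in WT, 0.72 in EGFP and 1.10 in L122A cells. Of the 15 at 5 CPM in EGFP cells 3 were higher and 1 lower, and of the 11 in L122A cells 7 were higher. Of these 7, Otx2, Cdh2 and Sall2 were under 5 CPM with LIF in L122A cells (2.30, 3.70 and 2.53 CPM). They could enter only by being higher. Otx2 went from 23.0 to 31.4 CPM in EGFP cells and from 2.30 to 9.87 CPM in L122A cells, where WT reached 139 CPM. Dnmt3b went from 137 to 222 CPM in EGFP cells and from 50.03 to 98.1 CPM in L122A cells, where WT reached 426 CPM. Fgf5 and Pou3f1 reached higher levels in EGFP cells than in WT cells without LIF. Fgf5 was at 5.22 and 112 CPM in EGFP cells and at 0.0902 and 1.87 CPM in L122A cells, and Pou3f1 at 5.45 and 26.7 CPM and at 3.11 and 2.83 CPM.
Streak and interferon genes also differed in level. Over all 16 streak and mesoderm genes the median log2 ratio was 1.70 in EGFP, 0.58 in WT and -0.67 in L122A cells, from levels that were low in WT. In EGFP cells 5 of them reached 5 CPM and were higher, and 4 of these 5 were under 5 CPM with LIF and so could enter only by being higher. WT had none at 5 CPM and 2 higher at a minimum of 1 CPM. Gbp2 went from 36.1 to 403 CPM in EGFP cells and from 0.632 to 0.506 CPM in L122A cells, and Irf1 had log2 ratios of 2.43 in EGFP and 0.00 in L122A cells.

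**Figure D5:**
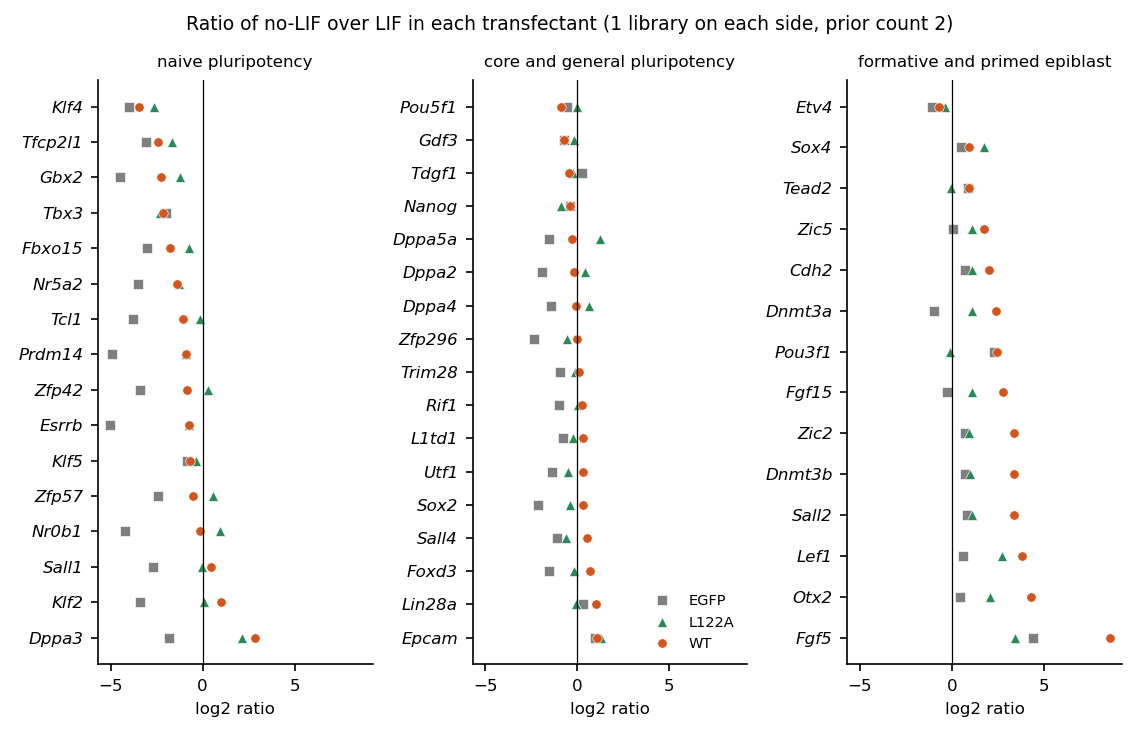
Log2 ratio of culture without LIF over culture with LIF for naive, general pluripotency and formative genes at 5 CPM or more in WT that are reported here, in EGFP (grey squares), L122A (green triangles) and WT cells (orange circles), 1 library on each side. Naive genes have medians of -3.39 in EGFP, -0.54 in L122A and -0.88 in WT cells, and the formative genes of the list, those under 5 CPM included, 0.72, 1.10 and 2.41.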

How the data were processed

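RNA of RF8 cells was extracted with a column kit and sequenced as 9 libraries. Alignment used TopHat2 2.0.11 and the mm9 build, per the submitters' processing notes. How reads were counted, and whether strand was used, is not given in the sources used here, so overlapping and antisense genes cannot be separated. Per the file headers, the authors deposited raw counts, which carry no normalization. The FPKM values deposited by the authors matched count over feature length and total count within 1% for 100% of genes above 5 FPKM. The deposited feature length of each gene, from the same table, was used for the length trend. The column taken as WT with LIF has a name part found in no label and was assigned by elimination. File starts count from 0 and were raised by 1. Symbols matched 28692 of 33495 identifiers in a newer annotation used for names alone; 25920 genes had a count in any library.

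CPM used trimmed-mean factors (edgeR 4.0.16, R 4.3.3; 0.820 with LIF, 0.940 without) from the 13996 genes that reached 1 CPM in 3 or more libraries. Ratios, exact Poisson intervals and figures were made in Python 3.11.15 (with scipy 1.17.1, numpy 2.4.6, matplotlib 3.10.9, pandas 2.3.3), and the computation was tested on simulated data. A count of 0 was read as 3 counts for a lower bound.

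Of the 417 genes in 27 lists, 408 matched and 247 reached 5 CPM. The lists cover the 5 main groups (naive, general pluripotency, LIF receptor and JAK-STAT, LIF and STAT3 targets, formative) and the others printed in the results. Members and lists were chosen with earlier results of these data known. Named are Nanog; the 10 genes with the largest log2 ratio each way at 5 CPM; up to 4 members of each list furthest past 2-fold each way (the member with the largest absolute log2 ratio if none did); and every member of the main lists. Some genes named by this rule are not reported here. Other genes named for context were chosen after their values were seen. The gene families named as such, the correction for length, and the list values with no minimum or with 5 CPM in the library with LIF, were likewise chosen with the data in view. The alternatives tried were total counts, RLE factors, totals without ribosomal RNA and mitochondrial genes, 0.5 as prior count, 1 CPM as minimum, an interval wholly past 2-fold, and the FPKM values with a pseudocount of 1.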

Additional observations from a re-analysis of the deposited data

Results flagged for a closer look

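For 8 of the genes named, the ratio of culture without LIF over culture with LIF went past 2-fold in opposite directions in WT cells and in another transfectant. Each side is 1 library, and the difference between transfectants was not tested. Against EGFP cells, Dppa3 had a log2 ratio of 2.82 in WT and -1.84 in EGFP, Prdm1 1.95 and -2.18, Fgfr2 1.90 and -1.21, and Tdrd12 1.10 and -1.63. Lower in WT and higher in EGFP were Vim (-1.70 and 1.21), Perp (-1.49 and 1.20) and Sparc (-1.07 and 1.14). Against L122A cells, Rhox6, which has close copies, had a log2 ratio of -1.27 in WT and 1.16 in L122A.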

How the results depend on the processing

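No paired analysis was possible because each combination of transfectant and culture had 1 library, which also leaves no replicate to leave out. The 568 higher and 461 lower genes became 878 and 252 with total counts, 358 and 155 with the deposited FPKM values, 1309 and 1125 at a minimum of 1 CPM, and 328 and 251 where the interval had to lie wholly past 2-fold. RLE factors (562 and 463), a prior count of 0.5 (563 and 460), totals without ribosomal RNA and mitochondrial genes (808 and 363) and the correction for length (548 and 367) stayed within 1.5 times. Naive members counted as higher were 2 in place of 1 with total counts, with totals without ribosomal RNA and mitochondrial genes, with FPKM and after the length correction. Members of the LIF receptor and JAK-STAT list counted as higher were 1 in place of 0 with total counts and at 1 CPM, and LIF and STAT3 targets 2 in place of 1 at 1 CPM. The FPKM values change the scaling, the unit and the pseudocount together, and the cause of these differences was not tested. Among the 128 named genes, none that was past 2-fold reversed its direction under RLE factors, total counts, totals without ribosomal RNA and mitochondrial genes, the prior count, FPKM or the length correction. Depth limits the low genes most. A count of 1 is 0.0492 CPM with LIF and 0.0408 CPM without, and ratios of genes below 1 CPM in 1 library have wide intervals.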

Other observations

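Median log2 ratios per chromosome ranged from -0.11 (chromosome 13, 393 genes) to 0.08 (chromosome 15, 379 genes) for autosomes and the X chromosome, and the 20 mitochondrial genes at 5 CPM had a median of -0.30. Among sets chosen after the values were seen, 4 of the 5 guanylate-binding protein and immunity-related GTPase genes at 5 CPM were higher (median 5.31). These 4 (Gbp1, Gbp2, Irgm1 and Igtp) were at 4.03 CPM or below with LIF and could enter only by being higher. Irgm2, at 5.51 CPM with LIF, was 1.61-fold higher. Of 8 MHC genes picked by name as class I heavy chains, 3 were higher and 1 lower (median 0.52). The 8 include H2-Ke6, which is not a heavy chain, and H2-Q7, which was at 4.28 CPM with LIF. Of 4 connexin genes 2 were lower (median -1.61). Among all genes at 5 CPM, 5.66% were higher and 4.59% lower. Reads of the first 2 sets may be split between close copies.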
